A study of Mus musculus with 98 samples.

Results

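Thymocytes are the developing T cells of the thymus, and 535 of the 21451 labelled cells of newborn thymus stroma, 2.49%, carried the thymocyte label that the authors deposited (Thy). The label was one of 29 and held all cells of 1 expression cluster and no others. Cells had been sorted as live cells negative for Ter119, an erythroid surface protein, and for CD45, the surface protein of white blood cells that thymocytes carry. The 535 cells were therefore those that remained after a gate meant to remove them, and their number says nothing of the thymocytes in the whole organ.

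All libraries came from the thymus of newborn (P0) mice. The HET group was heterozygous for both Tbx1 and Crkl (Tbx1+/- Crkl+/-), genes of the chromosome region deleted in 22q11.2 deletion syndrome, and the WT group were wild-type littermates, with 3 libraries in each. The Tbx1 allele carries an inserted LacZ gene, and the Crkl null allele was made by deletion of a floxed allele with Meox2-Cre, after which Cre was bred out by backcrossing to C57BL/6. Both alleles were in the germline, so the thymocytes carried them as well as the stroma. Sorted cells of both groups were fixed with RNAprotect before single-cell 3′ RNA sequencing, and each transcript molecule was counted once through its unique molecular identifier (UMI). The methods give n = 3 newborns per group, the number of libraries, although the labels tie no library to a single animal, and p-values measure the spread between these libraries only.

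In the thymus, precursors from the blood first carry neither CD4 nor CD8 and are called double negative. They rearrange the T cell receptor β gene with the RAG recombinase, signal through a pre-receptor that contains the Ptcra chain, divide, and become double positive cells with both CD4 and CD8, which rearrange the receptor α gene. Double positive cells sit in the cortex among cortical thymic epithelial cells (TECs), which show them peptides on MHC molecules. Those that pass selection become single positive cells in the medulla, and a separate lineage carries the γδ receptor.

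HET replicates 1, 2 and 3 held 26, 237 and 64 thymocytes, and WT replicates 1, 2 and 3 held 39, 78 and 91. These numbers were 1.54%, 4.45% and 1.95% of the labelled cells of the HET libraries and 1.64%, 2.504% and 1.61% of those of the WT libraries. HET replicate 2 stood above the other 5 libraries, with a 95% Wilson interval of 3.93% to 5.04%, and held 237 of the 327 HET thymocytes. Such intervals cover counting error only.

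Thymocytes were the shallowest of the 29 labels, with a median of 2071 UMIs and 1265 genes per cell against 2974 UMIs in all other cells. The median depth by library was 2006.5, 1887 and 1949.5 UMIs in HET and 1749, 2510 and 3054 UMIs in WT. In every library it lay below that of the other cells, whose medians ran from 2413 to 4721.5. Summed over cells, thymocytes gave 57494, 563602 and 149377 UMIs in the HET libraries and 89166, 219058 and 338708 in the WT libraries. Levels below are given as CPM, a gene's UMIs in these sums scaled to a common total per library. Of the 535 cells, 90 had 1000 detected genes or fewer, although the methods of the study state a minimum above 1000. Barcodes occurring in more than 1 library numbered 44, and 1 of them belonged to a thymocyte.

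**Figure D1:**
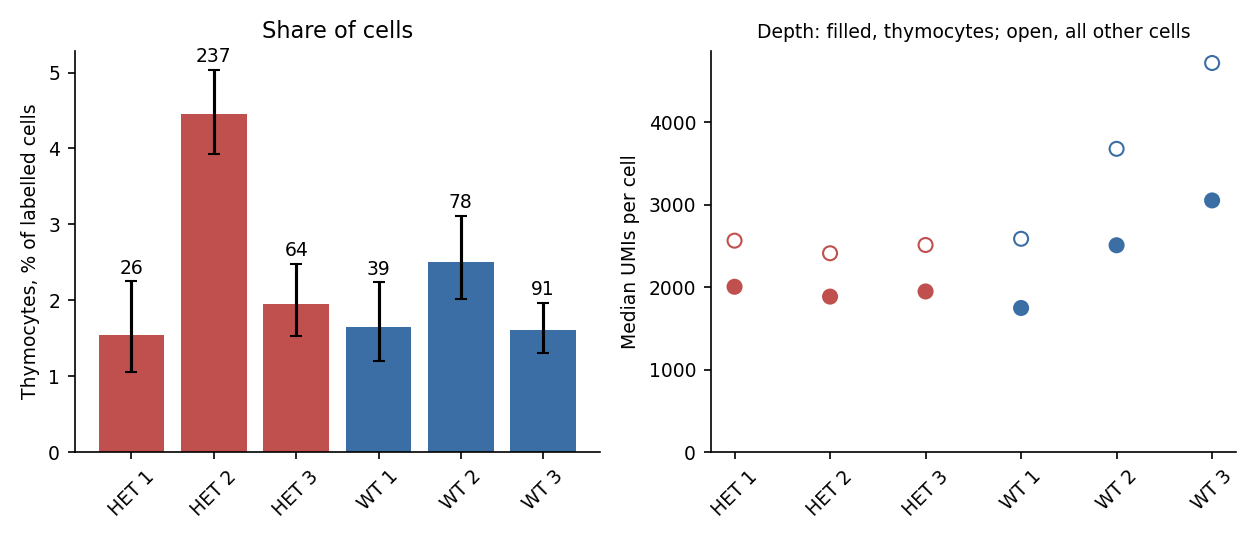
Thymocytes by library. The left panel shows thymocytes as a percent of labelled cells (bars with 95% Wilson intervals, cell numbers above), and the right panel the median UMIs per cell of thymocytes (filled) and of all other cells (open). HET replicate 2 has the highest share at 4.45%, and thymocytes are the shallower cells in all 6 libraries.

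The label held against its markers. Since the label was set by clustering these same counts, what follows on identity is a description with no test. Cd3e, a signalling chain of the T cell receptor complex, was at 487, 252 and 248 CPM in HET and 337, 397 and 611 CPM in WT. Rag1, a subunit of the recombinase, was at 365, 216 and 295 CPM in HET and 404, 228 and 340 CPM in WT. Cd8a was at 348, 311 and 328 CPM in HET and 337, 443 and 709 CPM in WT, and Cd4 was at 226, 153 and 133.9 CPM in HET and 236, 251 and 171 CPM in WT. All 4 markers were detected in all 6 libraries, and none was near 0 in any of them. At least 1 UMI of Cd3e was seen in 50.7% of thymocytes and 0.706% of fibroblasts, at median depths of 2071 and 3240 UMIs. Fibroblasts should not express this gene.

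At least 1 of these 4 genes gave a UMI in 435 thymocytes, or 81.3%. All 25 measured genes of a T lineage list had their highest mean level of any label in the thymocytes. Together these 25 genes gave 12123, 9044 and 8134 CPM in HET and 10957, 14950 and 15577 CPM in WT. A chain of the T cell receptor or its CD3 complex was detected in 512 cells, or 95.7%, against 11.5% of fibroblasts.

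The 10 genes that most set the thymocytes apart from the next highest label were Trbc2, Cd28, Ptprc, Ccr9, Tespa1, Skap1, Cd3e, Rhoh, Trbc1 and Satb1. Trbc2 and Trbc1 encode the constant regions of the receptor β chain. Trbc2 reached 2160 ± 946 CPM and Trbc1 1652 ± 501 CPM (SD, n = 6 libraries), but the 2 genes are near-identical copies, so how reads split between them is uncertain. Ptprc encodes CD45 itself and was at 1322, 942 and 1218 CPM in HET and 1155, 1401 and 1278 CPM in WT. Its transcript was seen in 84.5% of thymocytes against 0.982% of fibroblasts, so the cells that passed the CD45-negative gate held CD45 mRNA in every library. Cd28, the costimulatory receptor, was at 361 ± 71.7 CPM. Ccr9, the receptor that answers to the TEC chemokine Ccl25, was at 539, 406 and 529 CPM in HET and 449, 808 and 620 CPM in WT.

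Genes of the double positive stage were well represented. Their 10 measured members summed to 2713, 2092 and 2484 CPM in HET and 2142, 2835 and 3301 CPM in WT, and 7 of them were highest in the thymocytes of all labels. Arpp21, an RNA-binding phosphoprotein abundant in double positive thymocytes, was at 696, 511 and 790 CPM in HET and 527, 470 and 588 CPM in WT. Cd8b1, the CD8 β chain, averaged 403 ± 154 CPM.

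Among recombination genes, Rag2 averaged 55.2 CPM beside Rag1. Dntt, the enzyme that adds untemplated bases at receptor joints and is low in fetal thymocytes, gave 6, 19 and 0 UMIs in the HET libraries and 2, 4 and 23 UMIs in the WT libraries. Trac, the constant region of the receptor α chain, was at 331, 254 and 221 CPM in HET and 280, 520 and 446 CPM in WT. Both Rag1 and Trac were thus present in every library.

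Of the double negative genes, Ptcra, Il2ra and Dtx1 were sparse, whereas Notch1 and Hes1 were not. Ptcra, the pre-receptor chain, gave 18 UMIs in all, with 0, 6 and 0 in HET and 1, 3 and 8 in WT. Il2ra, a surface marker of the stage in which the β chain rearranges, gave 26 UMIs and stood at 73.7 CPM in the label ItTEC against 19.2 ± 11.1 CPM in thymocytes. Notch1, which drives commitment to the T lineage, averaged 94.1 ± 43.4 CPM, and Hes1, a Notch target, averaged 304 ± 43.2 CPM. Neither was particular to the thymocytes by rank, since 5 labels exceeded them for Notch1 and 9 for Hes1. Of 8 measured early progenitor genes, 0 were highest in the thymocytes.

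The 9 measured genes of late stages ranged from sparse to common. Ccr7, which guides cells into the medulla, gave 41 UMIs. Cd52, a small surface glycoprotein of lymphocytes, averaged 286 CPM and was seen in 36.4% of cells, Gimap6, a GTPase of lymphocytes, averaged 263 CPM in 41.1%, and Klf2, a factor that controls exit from the thymus, averaged 107.5 CPM in 19.8%. All 3 had higher levels in another label. Il7r, the interleukin 7 receptor carried by double negative and single positive cells, averaged 74.5 ± 44.7 CPM and was seen in 7.29% of cells. Zbtb7b, the factor of the CD4 lineage, gave 5 UMIs, and Foxp3, the factor of regulatory T cells, gave none. A count of 0 in 535 cells allows up to 0.561% of cells with a UMI, by a floor of 3 counts and for counting error only. Tox, induced during selection, averaged 307 CPM, and Cd69, an activation marker of selected cells, averaged 79.7 CPM.

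**Figure D2:**
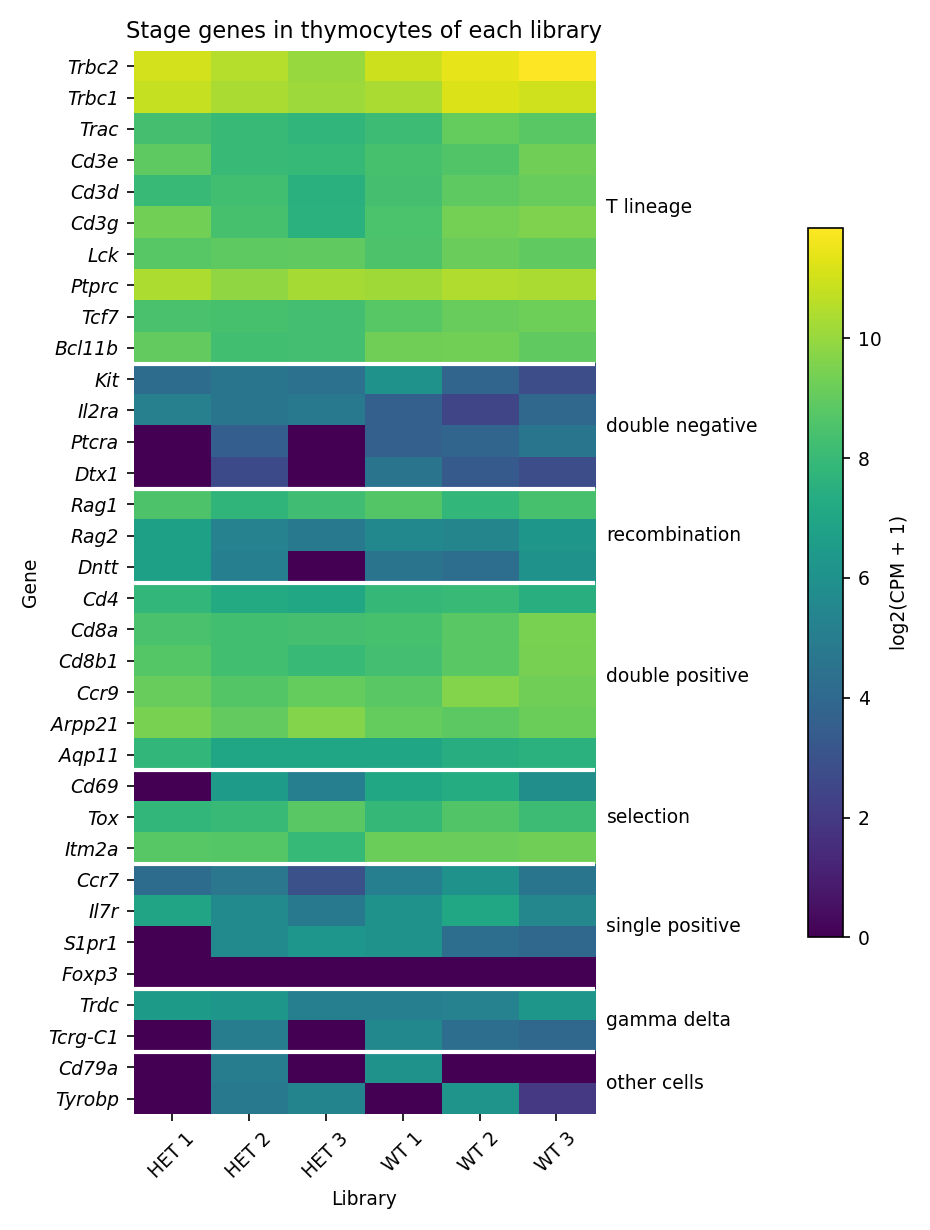
Heat map of thymocyte stage genes by library. Colour gives log2(CPM + 1) of UMIs summed over the thymocytes of each library, with genes grouped by stage in rows and the 3 HET and 3 WT libraries in columns. Genes of the double positive stage such as Ccr9 and Arpp21 are present in all 6 libraries, while Ptcra gives no UMI in 2 of them.

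Cell by cell, 104 thymocytes (19.4%) held UMIs of both Cd4 and Cd8a. A further 27.7% held only Cd8a, 12.7% only Cd4 and 40.2% neither. At this depth a cell without a UMI of a gene may still express it, so these classes are ranges of detection and not stages. The share with both genes was 15.4%, 14.3% and 10.9% in HET and 23.1%, 21.8% and 36.3% in WT, against at most 0.0805% of the fibroblasts of any library. When every cell with at least 2000 UMIs was thinned to 2000, the shares became 15.4%, 7.34% and 3.33% in HET and 7.69%, 10.4% and 23.2% in WT. This left 282 cells, and the groups, which had not overlapped before it, then overlapped. Thinned to 1000 UMIs, which kept all 535 cells, the shares were 3.85%, 5.91% and 6.25% in HET and 7.69%, 8.97% and 12.1% in WT, again without overlap. Thinning to 2000 UMIs changed both the depth and the set of cells, so their parts in the overlap cannot be told apart.

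Levels pooled over cells differed between the detection classes. Cells with both genes had 476 CPM of Rag1 and 877 CPM of Arpp21, whereas cells with neither had 107.1 and 286 CPM at a similar median depth of 2073 against 2114 UMIs. Il7r gave 0 CPM in the cells with both and 73.3 CPM in those with neither, and Bcl2, which keeps cells alive outside the double positive stage, gave 165 and 287 CPM. Trac differed less, at 340 and 282 CPM. Cells in which neither coreceptor was seen thus had lower pooled levels of Rag1 and Arpp21. These pooled values have no replicate error, and cells of 1 library weigh on them by their number.

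**Figure D3:**
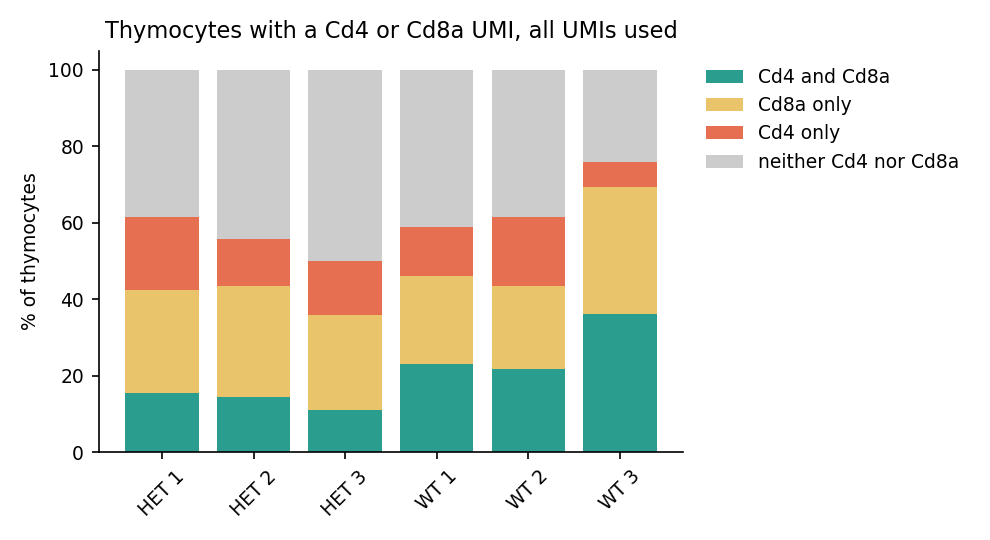
Detection of Cd4 and Cd8a in thymocytes. Stacked bars give, for each library, the percent of thymocytes with UMIs of both genes, of Cd8a only, of Cd4 only or of neither. The class with both runs from 10.9% in HET replicate 3 to 36.3% in WT replicate 3, the library with the deepest thymocytes.

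Cells with several UMIs of mitosis genes were a minority. At least 3 UMIs of the 10 mitosis genes were found in 60 thymocytes (11.2%), against 3.4% of fibroblasts. A dividing cell may fall short of 3 UMIs at this depth, so this is not the share of dividing cells. The paper gives proliferating fibroblasts a separate label (Pr), and they were not counted among the fibroblasts here. Dividing thymocytes were not split off in this way. The fibroblast share is therefore no like-for-like reference, and whether thymocytes divided more than fibroblasts was not tested. These 60 cells were deeper, with a median of 3058.5 UMIs against 2011 in the other thymocytes. They had 567 CPM of Cd8a against 406 in the rest, and 213 CPM of Trac against 366. Rag1 was at 195 CPM in them against 288 in the rest. Mitosis genes summed to 696, 573 and 254 CPM in HET and 505, 698 and 1323 CPM in WT, and the 10 DNA replication genes to 574, 543 and 315 CPM in HET and 965, 557 and 635 CPM in WT. HET replicate 3 was the lowest library for both.

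A few cells under the label carried genes of other lymphoid or myeloid lineages. At least 2 UMIs of the γδ receptor genes were seen in 27 cells (5.05%), which pooled to 784 CPM of Trdc, the δ chain constant region, 258 CPM of Cd163l1 and 247 CPM of Il7r. Trdc was among the genes that picked these cells, so its high level follows from the rule. Cd4 and Rag1 were both at 75 CPM in these 27 cells. They were spread over all 6 libraries, with 2, 14 and 2 cells in HET and 2, 3 and 4 in WT. Cd163l1 was not: over all thymocytes it gave 0, 39 and 0 UMIs in HET and 0, 6 and 1 in WT, most of them in HET replicate 2. At least 2 UMIs of B cell genes were seen in 12 cells, 9 of them in HET replicate 2. Their 1241 CPM of the B cell receptor chain Cd79b likewise follows from the rule, since Cd79b was among the genes that picked them. The same 12 cells had 1324 CPM of Trbc2 and 469 CPM of Cd8a, so genes of both lineages met under their barcodes. Myeloid genes reached 2 UMIs in 20 cells. Nkg7, a granule gene of cytotoxic cells, gave 20 UMIs, all in HET replicate 2. No chain of the T cell receptor complex was seen in 23 cells, which held 398 CPM of Spi1, a factor of myeloid and B cells, and 455 CPM of Cd79b.

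Transcripts of the stroma lay under every thymocyte barcode: 0 of the 535 cells were free of UMIs of the TEC, MHC class II and fibroblast lists. The 17 TEC genes gave a mean of 7.54, 11.8 and 9.70 UMIs per thymocyte in HET and 5.74, 12.6 and 14.0 in WT. In fibroblasts of the same libraries, which should lack these transcripts, the means were 2.998, 6.44 and 3.87 in HET and 2.52, 4.79 and 5.21 in WT. Thymocytes thus held 1.83 to 2.69 times as many TEC UMIs per cell as fibroblasts did, higher in 6 of 6 libraries, although they were shallower. Against endothelial cells the ratio was 1.43 to 2.17, also higher in 6 of 6. With every cell thinned to 2000 UMIs, the ratio to fibroblasts was 2.48 to 4.21. TECs themselves held 27.1 to 87.8 of these UMIs per cell.

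The 4 MHC class II genes, whose products present peptides to thymocytes and which mouse thymocytes do not themselves express, followed the same order. They gave 8.58, 12.3 and 13.3 UMIs per thymocyte in HET and 5.26, 10.6 and 13.8 in WT, or 1.59 to 2.87 times the fibroblast level. TECs held 29.5 to 102.8 of these UMIs per cell. Cd74, the invariant chain, was detected in 92.0% of thymocytes and 82.6% of fibroblasts, at median depths of 2071 and 3240 UMIs. How much of the fibroblast signal was background and how much their own expression was not tested.

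For fibroblast transcripts the order depended on the measure. The 10 fibroblast genes gave 2.58, 8.80 and 5.11 UMIs per thymocyte in HET and 6.05, 7.92 and 13.3 in WT, against 3.11, 8.76 and 5.32 per TEC in HET and 4.93, 4.84 and 7.55 in WT. The ratio per cell ran from 0.828 to 1.76 and was above 1 in 4 of 6 libraries. As CPM it ran from 1.17 to 2.76, and with every cell thinned to 2000 UMIs from 1.26 to 2.48, above 1 in 6 of 6 on both scales. A few cells held much of this: the 10% of thymocytes with the most fibroblast UMIs held 33.03% to 72.6% of them, most in WT replicate 3, against 32.98% to 51.1% for TECs. The median per thymocyte was 1 to 4 UMIs against 2 to 6 per TEC, lower in 5 libraries and equal in 1, and without the top 10% of each class the ratio of means per cell was 0.683 to 0.994, below 1 in 6 of 6. Against endothelial cells the ratio per cell ran from 0.768 to 1.34, above 1 in 3 of 6, and after thinning from 0.802 to 1.65, above 1 in 4 of 6.

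**Figure D4:**
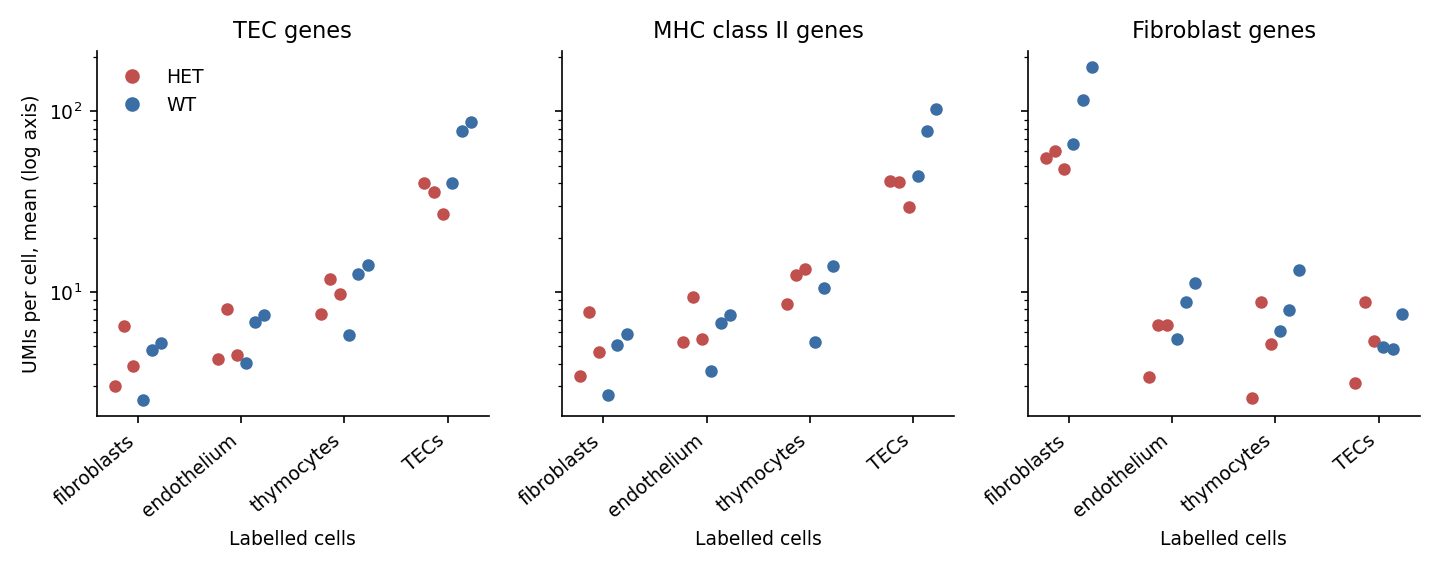
Stromal transcripts in thymocytes and other cells. Each point is the mean number of UMIs per cell in 1 library (log axis) for the TEC, MHC class II and fibroblast gene lists, in fibroblasts, endothelial cells, thymocytes and TECs. Thymocytes lie above fibroblasts for the TEC list in all 6 libraries, by 1.83 to 2.69 times, and below TECs.

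By gene, the excess took in most of the epithelial list. All 7 cortical TEC genes had a higher CPM in thymocytes than in fibroblasts, with a median ratio of 4.07. Ly75, an endocytic receptor of cortical TECs, stood at 5.9 times its fibroblast level, and Prss16, the thymus-specific serine protease, and Foxn1, the master factor of TECs, both at 4.6 times. Psmb11, the thymoproteasome subunit, stood at 3.3 times and Ccl25 at 3.0 times. Of 6 medullary TEC genes, 5 were higher, with a median of 2.12. Ccl21a, the medullary chemokine, stood at 1.4 times, and Fezf2, with 5 UMIs in thymocytes, at 0.5 times. Cldn4 was higher in thymocytes than in TECs, with 20.2 CPM in thymocytes, 5.0 in TECs and 0.4 in fibroblasts, on 23 UMIs. The test of a difference between cortical and medullary genes was not run.

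The UMIs were unevenly spread over cells. The 10% of thymocytes with the most TEC UMIs held 35.4% to 60.2% of them, where the top 10% of fibroblasts held 27.0% to 39.6% and those of endothelial cells 34.2% to 56.1%, so this unevenness was not particular to thymocytes. The typical cell differed less from background, with medians of 4, 7 and 6 TEC UMIs per thymocyte in HET and 3, 4 and 6 in WT, against 3, 5 and 3 per fibroblast in HET and 2, 3 and 4 in WT. The median was still higher in thymocytes in 6 of 6 libraries. Without the top 10% of each class, the ratio of means was 1.35 to 2.32. For MHC class II the median was higher in 4 libraries and equal in 2.

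The 56 thymocytes in the top 10% of their library by percent of TEC UMIs differed from the other 479 in T cell transcripts as well. They had 15427 CPM of the TEC list against 2632, and a median of 2863 UMIs against 2017. They had 1616 genes per cell at the median against 1239. Their T lineage list stood at 7285 CPM against 12322, and Ptprc at 629 against 1229. Rag1 was at 325 CPM against 266, Cd8a at 336 against 445, and the fibroblast list at 1617 CPM against 3440. Epithelial genes were thus high in cells that still held T cell genes. Whether these barcodes were pairs of cells was not tested; the methods of the study state that doublets were removed.

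Of single stromal genes, the 5 highest in thymocytes among those at under 10% of their level in some other label were Fabp4, Col3a1, Meg3, Dcn and Cdkn1c. Fabp4, a fatty acid binding protein of endothelium, averaged 772 CPM against 13235 in the label EnC, and Col3a1, a fibrillar collagen, 737 CPM against 17431 in CapFb4. Ctsl, the lysosomal protease of cortical TECs, was among the 10 most abundant genes of the thymocytes, at 4988 CPM against 19672 in McTEC. The other 9 were Malat1, Gm42418, Ptma, Actb, Eef1a1, AY036118, Tpt1, H3f3b and Tmsb4x, of which Gm42418 and AY036118 overlap ribosomal RNA.

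T cell receptor transcripts were in turn found outside the thymocytes. The 6 chains of the receptor complex had a median over the other labels with at least 10 cells of 12.4, 133.7 and 35.9 CPM in HET and 21.9, 22.2 and 25.04 CPM in WT, against 5601, 3912 and 2966 CPM in HET thymocytes and 4553, 7185 and 8066 CPM in WT thymocytes. HET replicate 2, the library richest in thymocytes, had the highest background, and 25.8% of its fibroblasts held a UMI of these chains against 3.30% to 9.72% in the other 5 libraries. In that library none of these labels was below 77.5 CPM.

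The comparison of HET with WT asks whether thymocytes that lack 1 copy of both genes, in a stroma that lacks them too, differ in number, stage or expression. The targeted genes were near the limit of detection. Tbx1 gave 0 UMIs in the thymocytes of all 6 libraries. Crkl gave 0, 18 and 3 UMIs in HET and 2, 11 and 10 in WT, too few to pass the filter on low counts, and 3′ tags may lie outside the deleted part, so neither gene checks the genotype here.

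The share of thymocytes did not differ detectably. It averaged 2.65% ± 1.57 in HET and 1.92% ± 0.508 in WT (SD, n = 3 each). By edgeR's quasi-likelihood test on cell numbers the log2 difference of HET from WT was 0.50 ± 0.37 (SE), with an adjusted p of 0.681 over the 29 labels, of which 0 were called (0% of those tested, and DESeq2 gave thymocytes an adjusted p of 0.786). The direction rested on HET replicate 2, without which the difference was −0.12. The median depth averaged 1948 ± 59.8 UMIs in HET and 2438 ± 656 in WT (exact permutation test, two-sided, p = 0.4, n = 3 each). The difference of −490 UMIs was −834 without WT replicate 1 and −182 without WT replicate 3. That test was 1 of 11 over libraries, whose smallest possible p with 3 against 3 libraries is 0.1, so none could pass 0.05, and the smallest adjusted p over the 11 was 0.55.

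No stage list separated the groups past a threshold. Of the planned lists, the double negative list had the smallest p. It was at 470, 433 and 462 CPM in HET and 606, 475 and 481 CPM in WT. The log2 difference was −0.19 (exact permutation test, two-sided, p = 0.1, the smallest possible) and −0.07 without WT replicate 1. The libraries did not overlap, WT being higher, and Hes1 supplied most of the list's UMIs. For the double positive list the difference was −0.17 (p = 0.4 by the same exact test), and for the late-stage list, at 591, 878 and 703 CPM in HET and 841, 1310 and 847 CPM in WT, it was −0.45 (exact p = 0.3). The difference was −0.60 for DNA replication genes (exact p = 0.2) and −0.73 for mitosis genes (exact p = 0.4). Single libraries moved these sizes but not their sign: over the 6 fits that left out 1 library, they ran from −0.34 to −0.03 for the double positive list, −0.60 to −0.24 for the late-stage list, −0.76 to −0.32 for replication and −1.04 to −0.30 for mitosis. HET replicate 3, when left out, gave the smallest difference for both cell cycle lists, and WT replicate 3 that for the double positive list. The thinned share of cells with both Cd4 and Cd8a averaged 8.69% ± 6.14 in HET and 13.8% ± 8.27 in WT (exact permutation test, two-sided, p = 0.5), a difference of −5.08 percentage points that ran from −8.43 to −0.37 with 1 library left out, smallest without WT replicate 3. Thinned to 1000 UMIs it was −4.25 points (exact p = 0.1, the smallest possible). The positive selection list, outside the planned tests, was at 1374, 1508 and 1520 CPM in HET and 1716, 1748 and 1568 CPM in WT. WT was higher without overlap (exact permutation test on CPM, two-sided, p = 0.1). The list averaged 1467 CPM in HET and 1677 CPM in WT, and its member Itm2a alone 368 and 586 CPM. Of the 5 members tested singly, 1, Itm2a, was higher in every WT library, against 6.97% of all tested genes. Egr1 and Tox were higher in HET, so the list's separation rested largely on Itm2a.

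MHC class II transcripts made up 0.388%, 0.518% and 0.570% of thymocyte UMIs in HET and 0.230%, 0.376% and 0.372% in WT. Every HET library was above every WT library, with means of 0.492% ± 0.0940 and 0.326% ± 0.0833 (exact permutation test, two-sided, p = 0.1, the smallest possible, n = 3 each). The same genes were also higher in HET without overlap in fibroblasts, at 1200, 2545 and 1696 CPM against 863, 1069 and 917, but not in TECs, at 13258, 13901 and 9749 CPM against 13296, 16457 and 19189. Whether the rise in fibroblasts was background, and its part in the thymocyte values, was not tested. The TEC list averaged 0.417% ± 0.0768 in HET and 0.359% ± 0.1002 in WT (exact p = 0.5), and the fibroblast list 0.235% ± 0.128 and 0.301% ± 0.0485 (exact p = 0.5).

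Of 3986 genes tested by edgeR's quasi-likelihood test on UMIs summed per library, 11 passed an adjusted p of 0.05, or 0.276% of those tested, and all 11 were higher in HET. None was higher in WT (0% of those tested), where 2.83% of the tested genes had an unadjusted p under 0.05, against 199 genes (4.99%) in the direction of HET and 312 (7.83%) in either. DESeq2 called 1 gene (0.0251%), Opcml. The calls depended on single libraries. Without HET replicate 3 no gene was called, with 5 without WT replicate 2 and 35 without WT replicate 1, and without HET replicate 2 there were 30, of which 10 were among the 11. The direction was not one-sided in every fit. Called genes higher in WT numbered 4 without HET replicate 2, 3 without WT replicate 1 and 4 without WT replicate 3. They numbered 2 with only cells over 1000 genes, 1 with the replicate number as a block and 2 without the filter on low counts.

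Opcml, a cell adhesion molecule anchored to the membrane by a lipid, rose the most. Its gene lies on chromosome 9 at 27790775 to 28925410 (plus strand, GRCm38). It was at 87.0, 128 and 315 CPM in HET and 44.9, 36.5 and 8.86 CPM in WT, from 5, 72 and 47 UMIs against 4, 8 and 3. Every HET library was above every WT library, and the log2 difference was 2.91 ± 0.48 (SE, adjusted p = 0.00061). It ran from 2.25 to 3.34 when 1 library was left out, with 2.25 without WT replicate 3 and 2.29 without HET replicate 3, where it did not pass (edgeR adjusted p = 0.211). Ints6l, related to a subunit of the Integrator complex, was at 104, 78.1 and 120.5 CPM in HET and 11.2, 22.8 and 14.8 CPM in WT (log2 difference 2.49 ± 0.52, adjusted p = 0.0094). Its WT values rest on 1, 5 and 5 UMIs.

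Ank3, a cytoskeletal adaptor, on chromosome 10 at 69398773 to 70027438, was at 139.1, 106 and 181 CPM in HET and 44.9, 45.7 and 17.7 CPM in WT (log2 difference 2.10 ± 0.42, adjusted p = 0.0075). Meis2, a homeobox factor, was at 174, 115.3 and 248 CPM in HET and 78.5, 27.4 and 44.3 CPM in WT (1.96 ± 0.41, adjusted p = 0.0094). Auts2, a nuclear regulator known from neurons, on chromosome 5 at 131437333 to 132543344 (minus strand), was at 121.8, 186 and 362 CPM in HET and 89.7, 59.3 and 53.1 CPM in WT (1.93 ± 0.38, adjusted p = 0.0075). In all 3 the groups did not overlap. The other called genes, named after their values were seen, were Alcam, Dst, Iigp1, Neat1, Arhgef12 and Gm47123, with log2 differences from 1.68 for Alcam to 1.81 for Gm47123.

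None of the 11 had its highest level in thymocytes. Each had a higher level in some other label, most often a TEC label, and thymocytes ranked between 6 and 27 among the 29 labels. Opcml reached 684 CPM in McTEC and Auts2 662 CPM in PcTEC. Over all other cells the HET mean was above the WT mean for all 11 as well, with log2 ratios of 0.24 to 0.94, but the libraries overlapped for 9 of the 11. Opcml and Ints6l were higher in every HET library. In those cells Opcml was at 350, 182.4 and 343 CPM in HET and 181, 176 and 141 CPM in WT. These counts were not taken over all genes in those cells, so no background share stands beside them. When the 10% of thymocytes with the highest percent of TEC UMIs was left out, 0 of 3607 genes tested by edgeR were called, with 220 at an unadjusted p under 0.05, and Meis2 and Auts2 differed by 2.20 and 1.95 on the log2 scale, both with an adjusted p of 0.078. Of the 11 genes, 9 passed the filter on low counts in that fit, and Opcml and Ank3 did not. Among cells at or below their library's median percent of TEC, MHC class II and fibroblast UMIs, 0 of the 11 passed that filter, so that subset says nothing about them.

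The called genes had a median span of 203 kb against 24.0 kb for the tested genes, and ran from 1.97 kb for Gm47123 to 1135 kb for Opcml. Gm47123, Iigp1 and Neat1 were shorter than the median tested gene. Malat1, a nuclear RNA, was at 58110, 46673 and 86667 CPM in HET thymocytes and 61503, 41085 and 31039 CPM in WT thymocytes, highest in HET replicate 3, which was also the highest library for all 11 called genes. The part of Malat1 or of the library in their values was not tested.

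Of the 25 T lineage genes, all of them tested, 0 passed (0.276% of all genes did), and 10 had an unadjusted p under 0.05, all 10 higher in WT, where 2.83% of all genes were. Their median log2 difference was −0.57, against −0.00014 over all genes, and 21 of 25 were lower in HET. Genes of 1 list are not independent of each other. Summed over the list, outside the planned tests, HET averaged 9767 ± 2091 CPM and WT 13828 ± 2506 CPM (SD, n = 3 each). The libraries overlapped (exact permutation test on CPM, two-sided, p = 0.2). In 6 of the 25 every WT library was above every HET library, which was the case in 6.97% of all tested genes (4.62% in the other direction). Lef1, a partner of Tcf7 in T lineage gene control, was at 452, 378 and 355 CPM in HET and 583, 726 and 585 CPM in WT. Tcf7 was at 348, 339 and 315 CPM in HET and 437, 543 and 608 CPM in WT, and Cd3d, a receptor chain, at 261, 303 and 181 CPM in HET and 325, 484 and 546 CPM in WT.

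Coro1a, an actin regulator that T cells need to survive, was among the 5 genes of smallest p in the direction of WT. It was at 278, 438 and 181 CPM in HET and 572, 685 and 762 CPM in WT, without overlap (log2 difference −1.07 ± 0.31, adjusted p = 0.152). Without HET replicate 2 it passed, with a difference of −1.64 and an adjusted p of 0.013 in edgeR, and it passed in none of the other 5 fits that left out a library. Of the others, Nt5c3b differed by −1.71 (adjusted p = 0.0928), and Tubb5 and Ube2c by −0.93 and −1.37 (both adjusted p = 0.317). Tubb5 passed without HET replicate 2 (−1.53, edgeR adjusted p = 0.022), and Ube2c and Nt5c3b without WT replicate 1 (−1.75 and −1.81, edgeR adjusted p = 0.0092 and 0.047). Ube2c was at 11.2, 123 and 213 CPM in WT, and without WT replicate 3 its difference was −0.61 (edgeR adjusted p = 0.999). The 4 marker genes did not pass either, with −0.57 for Cd3e (adjusted p = 0.712), −0.17 for Rag1 (0.946), −0.61 for Cd8a (0.635) and −0.38 for Cd4 (0.862).

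**Figure D5:**
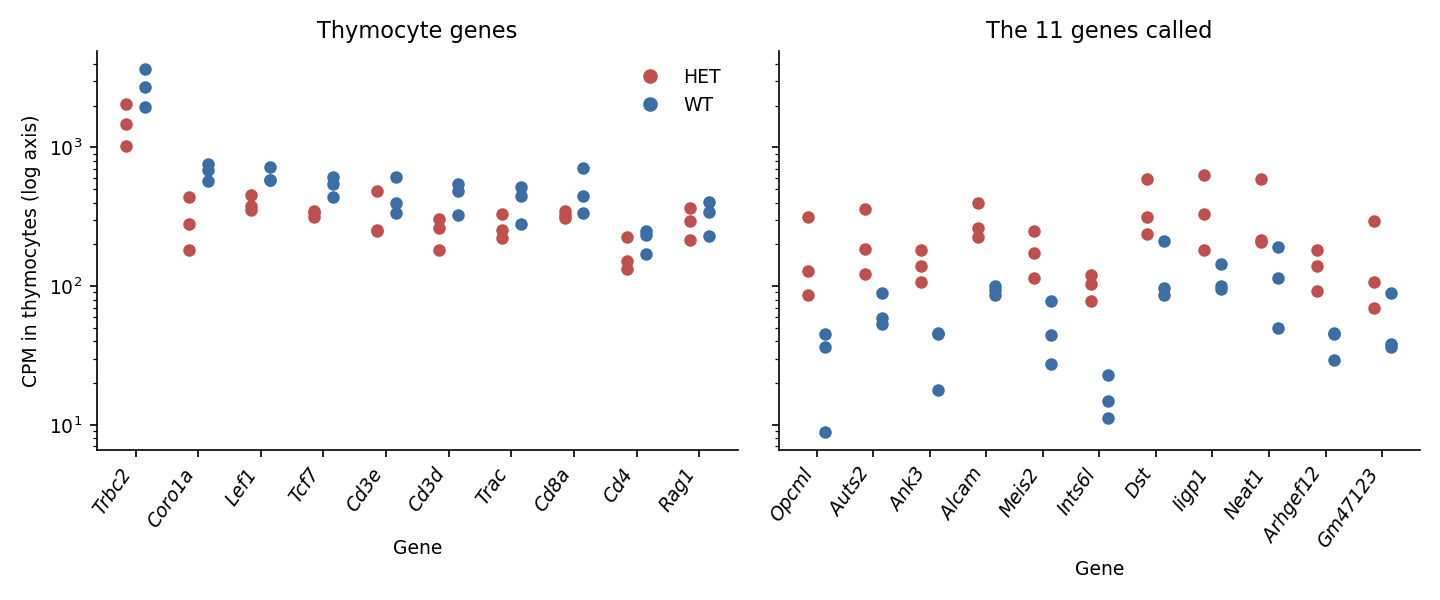
Thymocyte genes in HET (red) and WT (blue) libraries. Points give CPM of UMIs summed over thymocytes, 1 per library (log axis), for T lineage and marker genes (left) and for the 11 genes that passed the edgeR test (right). Coro1a, Lef1, Tcf7 and Cd3d are lower in every HET library without passing the test. Trbc2, Cd3e, Trac, Cd8a, Cd4 and Rag1 overlap between the groups. Opcml is higher in every HET library, with a log2 difference of 2.91.

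The Crkl protein is an adaptor that binds Cbl and the exchange factor Rapgef1 and works downstream of the T cell receptor. Of 16 measured genes of this adaptor pathway, 10 were tested and 0 passed, with a median log2 difference of −0.26. Over all genes 0.276% passed, 2.83% were higher in WT at an unadjusted p under 0.05 and 6.97% were higher in every WT library. At an unadjusted p under 0.05 were Lcp2, the adaptor SLP-76, at 87.0, 86.9 and 46.9 CPM in HET and 100.9, 155.2 and 142 CPM in WT, and Fyn, a Src-family kinase, at 52.2, 92.3 and 66.9 CPM in HET and 179.4, 160 and 100.4 CPM in WT. Both were higher in every WT library. Lck, the kinase bound to CD4 and CD8, overlapped between the groups, at 435, 472 and 502 CPM in HET and 370, 561 and 496 CPM in WT.

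The shares over all genes for the lists that follow were 4.99% at an unadjusted p under 0.05 and higher in HET, 4.62% higher in every HET library and 6.97% higher in every WT library. The double positive genes had 8 tested and 0 called, with a median log2 difference of −0.33. Of the 4 MHC class II genes, 0 were called and 3 were higher in HET at an unadjusted p under 0.05, with a median of 0.67. The 4 tested cortical TEC genes had a median of 0.18 and the 9 tested fibroblast genes one of −0.25, with 0 called. Of 6 tested genes of the immediate stress response, 0 were called and 3, Atf3, Jun and Fosb, were higher in HET at an unadjusted p under 0.05. Atf3, a stress-induced transcription factor, was at 296, 136.6 and 348 CPM in HET and 89.7, 109.6 and 115.1 CPM in WT, and Jun, a subunit of the factor AP-1, was at 696, 894 and 1285 CPM in HET and 572, 630.0 and 605 CPM in WT. For both every HET library was above every WT library. Of 5 tested genes of positive selection 0 were called, with 3 lower in HET and 2, Egr1 and Tox, higher. Among the 5, Itm2a, a membrane protein induced as thymocytes are selected, was higher in every WT library. It was at 435, 428 and 241 CPM in HET and 583, 561 and 614 CPM in WT. The paper lists Itm2a among the top genes of the fibroblast labels CapFb1a and CapFb1b, so it is not particular to thymocytes.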

How the data were processed

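The deposited single-cell tables hold UMI counts per gene and cell, which the authors made with Cell Ranger 3.1.0 (mm10 and GRCh38 are named in the submitters' processing notes, without a role), and the authors' cell labels. The methods state that cells with more than 1000 genes and less than 5% mitochondrial UMIs were kept and doublets removed; no doublet caller was run here. Members are the cells labelled Thy. The members and gene lists were chosen with earlier results of these data known.

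UMI counts were summed over the thymocytes of each library. Genes were tested with edgeR 4.0.16 (filterByExpr, TMM, quasi-likelihood test, Benjamini-Hochberg adjustment over all tested genes, threshold 0.05) in R 4.3.3, after a check on simulated counts, with DESeq2 1.42.0 as an alternative. Cell numbers of all 29 labels were tested in 1 edgeR fit with the library's labelled cells as offset. List levels, log2(CPM + 1), were compared with exact permutation tests over libraries (20 splits, two-sided; Python 3.11.15, scipy 1.17.1). Single cells were thinned to 2000 UMIs for shares, leaving out shallower cells.

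Named genes are members of the lists, the 5 called genes of largest change and, where none passed, the 5 of smallest p, the 10 that most exceeded every other label (at least 50 CPM, pseudocount 10 CPM), the 10 most abundant outside mitochondrial and ribosomal genes, and the 5 highest stromal genes. Gene positions are from GENCODE M21 (GRCm38). Some genes of the lists, and 1 gene that the naming rule picked, are not reported here. The alternatives with lower-carry cells only (those at or below their library's median percent of TEC, MHC class II and fibroblast UMIs), without the top 10% by TEC percent, and with TMM factors for cell numbers were chosen after seeing the data.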

Additional observations from a re-analysis of the deposited data

How the results depend on the processing

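The number of genes called changed most. It was 11, and 20 with only cells over 1000 genes, 1 with DESeq2, 23 without the filter on low counts, 0 in the lower-carry cells, where 0 of the 11 passed the filter on low counts, and 0 without the top 10% by TEC percent, where 9 of the 11 passed it. Leaving out 1 library each gave 0 to 35 genes; 0 came without HET replicate 3 and 35 without WT replicate 1. With stromal, erythroid and sex genes removed 15 were called, and without TMM 10. Genes higher in WT numbered 0 to 4 in these fits. The cause of these moves was not tested. With the replicate number as a block 19 were called. Same-numbered libraries did not deviate together (r of 0.025, −0.017 and −0.235). Pairs with different numbers ran from −0.253 (HET replicate 2 with WT replicate 1) to 0.310 (HET replicate 2 with WT replicate 3). These few values cannot show whether the numbers are a pairing.

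The share of thymocytes differed by −0.12 to 0.75 on the log2 scale when 1 library was left out, turning below 0 only without HET replicate 2, and was 0.72 over nonepithelial cells. The fibroblast list was 0.0223 percentage points higher in HET by the median over cells. Rag1 turned from −0.17 to 0.32 in the lower-carry cells, to 0.012 without the top 10% and to 0.028 without HET replicate 2 (−0.37 to 0.028 over libraries left out).

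Restriction to cells with no stromal UMI could not be fitted, since there were 0. Depth limits sparse genes: with 26 cells, HET replicate 1 gave 57494 UMIs, so 3 counts there are already 52.2 CPM.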

Other observations

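Genes of survival, homing and fetal origin were also measured in the thymocytes. Of survival genes, Mcl1, which double positive cells need to stay alive, was at 383, 378 and 335 CPM in HET and 527, 447 and 402 CPM in WT, higher in every WT library. It was the only 1 of the 5 survival genes to be so, against 6.97% of all genes tested. By edgeR 0 of the 5 were called and 0 were at an unadjusted p under 0.05, against 0.276% and 7.83% of all genes tested. Bcl2l11, the death effector Bim, averaged 228 ± 69.9 CPM (SD, n = 6). Selplg, the selectin ligand used by cells that enter the thymus, averaged 114 ± 42.3 CPM and was seen in 20.7% of thymocytes.

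Igf2bp3, an RNA-binding protein of fetal blood cell development, was at 226, 126 and 80.3 CPM in HET and 100.9, 91.3 and 103.3 CPM in WT. Its partner in fetal programmes, Lin28b, gave 12 UMIs in all. Of the 5 measured fetal genes, 0 had their highest mean level in the thymocytes, so Igf2bp3 was not particular to them. Haemoglobin transcripts were present although Ter119-positive cells had been sorted away: Hbb-bs was at 69.6, 150.8 and 0 CPM in HET and 11.2, 59.3 and 65.0 CPM in WT. Alas2, the haem synthesis enzyme of erythroid cells, gave 0 UMIs. Summed haemoglobin and other erythroid UMIs per cell were 0.203 to 2.37 times the fibroblast level, higher in 4 of 6 libraries. Haemoglobin genes are near-identical copies, so the split of reads among them is uncertain.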
